A study of Mus musculus with 17 samples.

Results

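C2C12 mouse myoblasts carrying the SRF-FOXO1 fusion were compared with the SRF-ICA1L and SRF-RELA lines, which resemble each other, over all genes of the count table. The members were the 9 libraries whose titles name these 3 lines, 3 libraries each, of 17 libraries in all, and every one of the 15062 genes in the table was tested. The quantity compared was the log2 level in SRF-FOXO1 minus the mean of the log2 levels in SRF-ICA1L and SRF-RELA. All lines were grown in DMEM with 10% fetal bovine serum, and the controls carried the empty pMSCV vector (3 libraries). The series also holds an SRF line (3 libraries) and an SRF-PDGFRB line (2 libraries), which entered the fit for its estimate of the spread. C2C12 is an established line of skeletal myoblasts, so each group is 1 cell line carrying 1 construct, and nothing in the labels says whether its 3 libraries came from separate cultures. The p-values therefore measure the spread between these libraries. That spread was far larger than counting error, and its source was not tested.

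SRF, serum response factor, binds the CArG box through its MADS domain and switches on immediate-early genes after serum as well as genes of the actin cytoskeleton and of muscle. The fusions join SRF to part of another protein. FOXO1 is a forkhead transcription factor that insulin and AKT signalling keep out of the nucleus, RELA is a subunit of NF-kappaB, and ICA1L is a protein related to islet cell autoantigen 1. Myoblasts are held in their lineage by MYOD1 and MYF5, which bind E-boxes, and they carry cadherin and integrin receptors that prepare them for fusion.

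Total counts of the 9 libraries lay between 20948439 and 22426211. The similarity of libraries was measured as the root mean square difference of log2 CPM (the count scaled to library size, here with edgeR's TMM factors) over genes. Same-numbered SRF-ICA1L and SRF-RELA libraries were the nearest pairs, at 0.401 to 0.489, while libraries within SRF-ICA1L differed by 0.766 to 0.836. The 3 SRF-FOXO1 libraries differed from each other by 0.752 to 1.03, and from the libraries of the other lines by 0.545 to 1.19. SRF-FOXO1 replicate 2 lay nearer to SRF-ICA1L replicate 2 (0.545) than to SRF-FOXO1 replicate 1 (0.752) or replicate 3 (1.03). SRF-FOXO1 replicate 3 stood farthest out, at 0.783 from its nearest library and at 1.19 from SRF-ICA1L replicate 1. Because same-numbered SRF-ICA1L and SRF-RELA libraries vary together, the 6 comparison libraries are fewer than 6 independent ones.

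**Figure D1:**
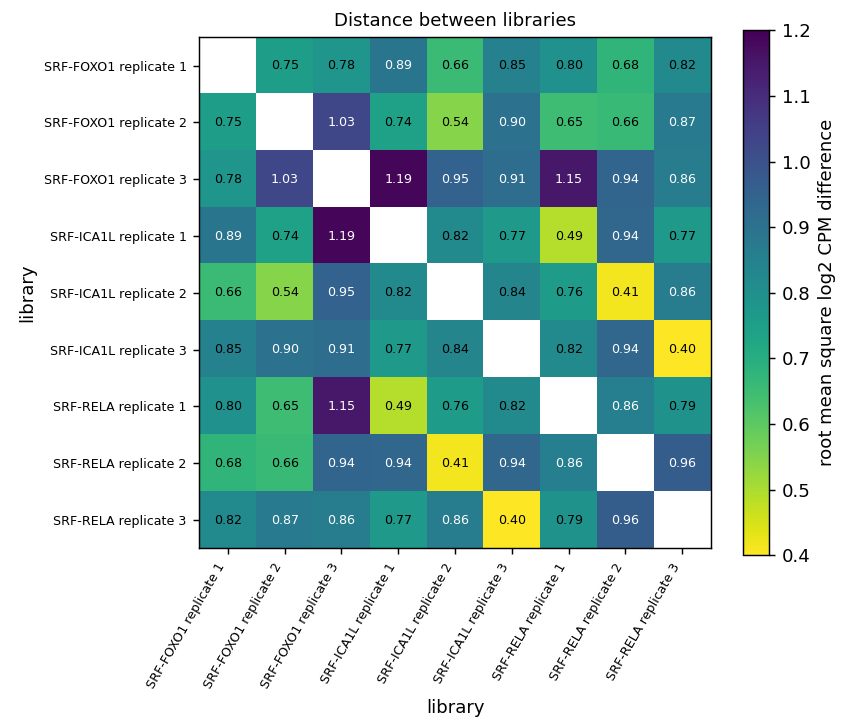
Root mean square difference of log2 CPM over 15062 genes between each pair of the 9 libraries (rows and columns, colour and printed value). The darkest entries lie in the row of SRF-FOXO1 replicate 3, up to 1.19, and the lightest between same-numbered SRF-ICA1L and SRF-RELA libraries, 0.401 to 0.489.

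No gene separated SRF-FOXO1 from SRF-ICA1L and SRF-RELA once p-values from the quasi-likelihood test of edgeR were adjusted over all genes by the Benjamini-Hochberg method (threshold 0.05), and the smallest adjusted p was 0.672. Before adjustment, p was under 0.05 in 1057 genes (7.02%), 602 higher (4.0%) and 455 lower (3.02%) in SRF-FOXO1. Without SRF-FOXO1 replicate 3 that count was 243, with 120 higher and 123 lower. In 245 genes (1.63%) all 3 SRF-FOXO1 libraries lay above all 6 others, and in 230 genes (1.53%) all 3 lay below, 475 genes (3.15%) together. DESeq2 called 1 gene (0.00665%), Ethe1, a mitochondrial sulfur dioxygenase, and had 1270 at an unadjusted p under 0.05. Ethe1 stood at 13.1, 15.7 and 10.9 CPM in SRF-FOXO1, below all of 24.3, 22.7 and 21.4 CPM in SRF-ICA1L and 23.7, 18.8 and 17.9 CPM in SRF-RELA, with 25.8 to 33.1 CPM in pMSCV. Its log2 difference was -0.70 (SE 0.15, unadjusted p 0.000378) in edgeR. What follows therefore describes values by library and counts of genes, each read against the percentages above.

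The introduced genes came first. Srf (chr17:46548329-46556175 on the minus strand, GRCm38) stood at 105, 84.1 and 71.8 CPM in SRF-FOXO1, at 279, 176 and 121 CPM in SRF-ICA1L and at 155, 137 and 85 CPM in SRF-RELA. The pMSCV libraries held 66.6 to 93.8 CPM, so 2 of 3 SRF-FOXO1 libraries lay within the control range and 5 of the 6 others above it. The groups overlapped at SRF-RELA replicate 3, and the log2 difference was -0.83 (SE 0.31, unadjusted p 0.0169). Foxo1 stood at 22.8, 33.0 and 38.5 CPM in SRF-FOXO1 and between 19.9 and 30.4 CPM in the other 6, an overlap with a log2 difference of 0.32 (SE 0.23), which was 0.15 without SRF-FOXO1 replicate 3. Rela was at 72.2, 110 and 68.0 CPM in SRF-FOXO1 and between 72.2 and 101 CPM in the others, and its log2 difference was -0.03 (SE 0.18). Ica1l stayed between 0.289 and 1.36 CPM in all 9 libraries. In the SRF line Srf stood at 1673, 678 and 1033 CPM, far above the pMSCV libraries. How far reads of a fusion construct counted towards the mouse genes was not tested, so these values do not measure the fusions themselves. Foxo1 and Ica1l share exon bases with a gene on the opposite strand, and whether counting used the strand is not stated. The same limit holds for Ethe1, Des, Dusp13, Dusp5, Adh7, Fst, Siae, Mpp1, Cacna1a, Txnip, Irs1, Tagln, Synm, Tnxb, Col4a3, Pdgfc, Nrg1, Fat4, Wnt7b, Nfkb2, Rbl2 and Shmt2 below, while Trim12c and Pdlim7 share exon bases with a gene on their own strand. Trim12c and 9930111J21Rik2 also have close copies in the genome, between which reads may have been split.

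The promoter of Srf is itself a carrier of CArG boxes, and it is shown for that reason with the promoter of Pdgfc, a growth factor gene described below, in which all SRF-FOXO1 libraries lay below the others. The sequences are the stretch before the RefSeq start in GRCm38.p6, and capitals mark the CArG box. The window at Srf is chr17:46556183-46556262 on the minus strand and the window at Pdgfc is chr3:81036346-81036415 on the plus strand.
Srf: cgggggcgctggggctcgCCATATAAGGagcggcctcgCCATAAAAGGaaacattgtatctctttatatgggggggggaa
Pdgfc: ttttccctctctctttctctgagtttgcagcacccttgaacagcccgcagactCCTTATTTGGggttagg
A CArG box on either strand occurred in the 250 bases before the start of 128 of the 10631 tested genes matched to a RefSeq promoter (1.2%). It occurred in 4 of 147 matched genes (2.72%) with all SRF-FOXO1 libraries below the other 6 and in 1 of 171 (0.585%) with all above. These are descriptions of letters in a short window and not of binding.

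Genes of myoblast identity lay lower in SRF-FOXO1. Of 8 myoblast markers measured, 5 had all 3 SRF-FOXO1 libraries below all 6 others, against 1.53% of all genes, and 3 had an unadjusted p under 0.05, all lower. The median log2 difference was -1.44, against 0.01 over all genes, and it was -1.36 without SRF-FOXO1 replicate 3. The 8 markers summed to between 409 and 520 CPM in SRF-FOXO1, 603 to 1377 CPM in SRF-ICA1L, 544 to 959 CPM in SRF-RELA and 1862 to 2243 CPM in pMSCV. Fewer cells of a type and less RNA per cell cannot be told apart in bulk RNA.

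Cdh15 (chr8:122847966-122867397), which encodes M-cadherin, an adhesion protein of satellite cells and myoblasts, stood at 30.4, 22.3 and 22.9 CPM in SRF-FOXO1. It was at 79.9, 85.6 and 218 CPM in SRF-ICA1L and at 55.2, 64.7 and 125 CPM in SRF-RELA, with 206 to 392 CPM in pMSCV. No SRF-FOXO1 library reached the lowest of the others, and the log2 difference was -2.02 (SE 0.74, unadjusted p 0.0160). Des, which encodes the muscle intermediate filament desmin, showed the same order. It stood at 114, 108 and 88.5 CPM in SRF-FOXO1, 176, 290 and 455 CPM in SRF-ICA1L and 142, 305 and 308 CPM in SRF-RELA (log2 difference -1.42, SE 0.64). Chrna1, the alpha subunit of the muscle acetylcholine receptor, was at 41.6, 37.1 and 36.2 CPM in SRF-FOXO1, 83.3, 92.2 and 198 CPM in SRF-ICA1L and 58.8, 94.5 and 110 CPM in SRF-RELA. Its log2 difference was -1.45 (SE 0.69), and pMSCV held 143 to 402 CPM. Itga7, the laminin-binding integrin chain of muscle, was at 126, 135 and 95.6 CPM in SRF-FOXO1 and between 161 and 293 CPM in the other 6, also with no overlap (log2 difference -0.71, SE 0.31). Chrna1 and Itga7 were named after their values were seen.

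Among the myogenic regulators, the master factor Myod1 (chr7:46376474-46379099) stood at 11.8, 6.66 and 10.4 CPM in SRF-FOXO1, 16.1, 14.6 and 64.4 CPM in SRF-ICA1L and 13.2, 14.3 and 46.6 CPM in SRF-RELA. The groups did not overlap, but replicate 3 of both other lines stood far above their replicates 1 and 2. The log2 difference was -1.54 (SE 0.80, unadjusted p 0.0754), from -1.71 to -1.01 over the fits that leave out 1 library. Myf5 overlapped, at 11.3, 6.75 and 5.22 CPM against 8.57 to 25.6 CPM. Pax7, the satellite cell factor, also overlapped, at 0.218, 0.703 and 0.223 CPM against 0.245 to 6.96 CPM. Of 14 regulators measured, 10 had a log2 difference below 0, Myod1 alone was free of overlap and none had an unadjusted p under 0.05. Vcam1, the remaining marker that went the other way, overlapped with a log2 difference of 0.06 (SE 0.41).

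**Figure D2:**
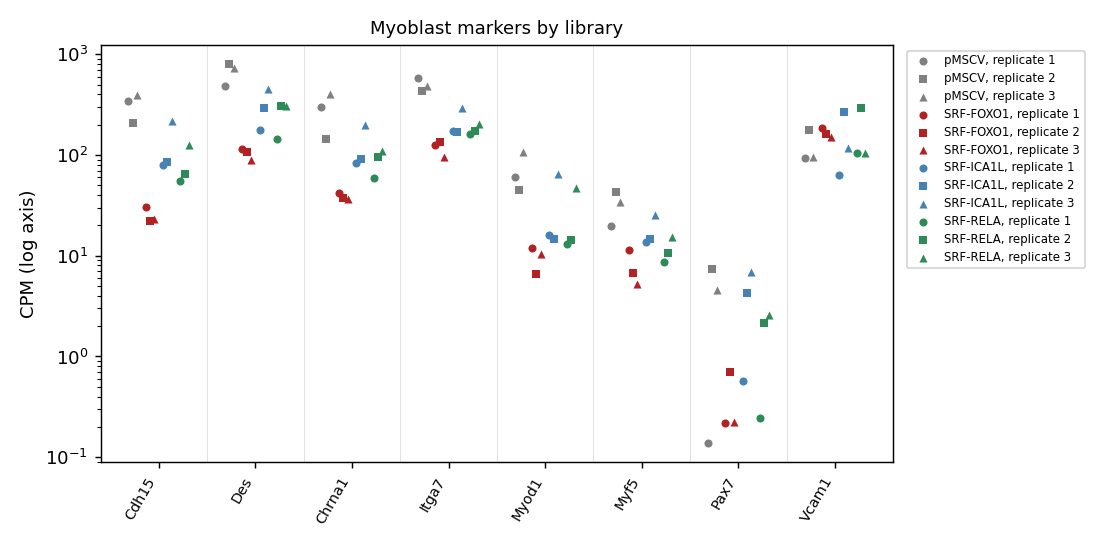
CPM (log axis) of the 8 myoblast markers in each library of pMSCV, SRF-FOXO1, SRF-ICA1L and SRF-RELA, with the marker shape giving the replicate. The SRF-FOXO1 points lie below those of all 3 other groups for Cdh15, Des, Chrna1, Itga7 and Myod1, and within them for Vcam1.

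The wider list of skeletal muscle differentiation genes held 41 measured members. Of these, 33 had a log2 difference below 0 and the median was -0.43. The median depended on single libraries, at -1.16 without SRF-FOXO1 replicate 3 and 0.02 without SRF-RELA replicate 2. Before adjustment 5 had a p under 0.05, all lower, and 4 had no overlap, namely Cdh15, Chrna1, Dusp13 and Xirp1. Dusp13, a muscle phosphatase gene, stood at 1.31, 0.797 and 0.624 CPM in SRF-FOXO1 and between 1.83 and 5.04 CPM in the other 6 (log2 difference -1.70, SE 0.53, unadjusted p 0.00650). Chrnb1, the beta subunit of the same receptor, overlapped at SRF-RELA replicate 2, with 15.7, 10.6 and 9.36 CPM against 14.9 to 54.0 CPM. Actn3, the alpha-actinin of fast fibres, overlapped as well, at 14.2, 11 and 8.65 CPM against 12.7 to 59.0 CPM. The summed level of the list lay between 251 and 322 CPM in SRF-FOXO1, between 417 and 921 CPM in the other 6 and between 1095 and 1872 CPM in pMSCV, although the mean log2 level of its members overlapped between the groups. Markers of myotubes summed to 39.7 to 74.0 CPM in SRF-FOXO1 and to 37.8 to 300.4 CPM in the other 6, which overlap.

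The promoters of Des and Chrna1 are shown because both carry the E-box letters CAGCTG, which read the same on both strands and are marked by capitals. The windows are chr1:75360192-75360291 on the plus strand for Des and chr2:73580339-73580448 on the minus strand for Chrna1.
Des: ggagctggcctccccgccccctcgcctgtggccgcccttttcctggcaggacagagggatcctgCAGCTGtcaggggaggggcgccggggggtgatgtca
Chrna1: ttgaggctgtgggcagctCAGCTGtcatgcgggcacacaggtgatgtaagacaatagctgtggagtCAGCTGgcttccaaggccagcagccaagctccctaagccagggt
CAGCTG occurred in the 250 bases before the start of 11.9% of all matched genes, in 12.2% of those with SRF-FOXO1 all below and in 11.1% of those with SRF-FOXO1 all above. The share among the lower genes was thus close to that of all genes.

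Smooth muscle genes did not share 1 direction. Tagln, the actin-binding protein transgelin and a classical SRF target, stood at 0.697, 0.938 and 0.936 CPM in SRF-FOXO1, 3.90, 2.46 and 2.29 CPM in SRF-ICA1L and 2.45, 2.83 and 1.35 CPM in SRF-RELA. It did not overlap, and its log2 difference was -1.55 (SE 0.41, unadjusted p 0.00191), with a range of -1.68 to -1.42 over the fits that leave out a library. The pMSCV libraries were at 0.231 to 0.661 CPM. Tagln shares exon bases with Pcsk7 on the opposite strand. Myh11, smooth muscle myosin, was at 4.50 and 14.1 CPM in SRF-RELA replicates 1 and 2 and between 0.134 and 0.703 CPM in the other 7 libraries, so its log2 difference was -4.16 against SRF-RELA and 0.12 against SRF-ICA1L. Synm, which encodes the filament protein synemin, stood at 5.75, 2.91 and 16.8 CPM in SRF-FOXO1 and between 1.13 and 5.57 CPM in the others (log2 difference 1.57, SE 0.54, and 0.60 without SRF-FOXO1 replicate 3). Of 18 smooth muscle contractile genes, 12 lay below 0, with 3 lower and 1 higher at an unadjusted p under 0.05.

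The cytoskeletal targets of SRF differed little. Of 28 measured, 20 lay below 0, the median log2 difference was -0.09 (-0.19 without SRF-FOXO1 replicate 2) and 2 passed an unadjusted p under 0.05. Those were Tagln2, at 469, 805 and 477 CPM in SRF-FOXO1 against 719 to 1165 CPM, and Pdlim7, at 104, 111 and 66.2 CPM against 110 to 159 CPM. Both overlapped. Tpm1, a tropomyosin of stress fibres, was at 1028, 1177 and 868 CPM against 953 to 1607 CPM, and its log2 difference of -0.36 (SE 0.20) had an unadjusted p of 0.0844.

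The immediate-early targets leaned lower but were uneven within every group. Of 26 measured, 25 lay below 0, the median was -0.39 and 2 passed an unadjusted p under 0.05. Without SRF-FOXO1 replicate 3, 16 lay below 0 and the median was -0.14, while without replicate 2 the median was -1.95. Their summed level ran from 1844 to 11805 CPM in SRF-FOXO1 and from 1994 to 14006 CPM in the other 6. Klf2, a serum-responsive zinc finger factor, showed this spread, at 21.4, 56.9 and 12.8 CPM in SRF-FOXO1, 58.0, 43.2 and 41.7 CPM in SRF-ICA1L and 88.1, 79.9 and 37.7 CPM in SRF-RELA. Arc was at 9.07, 25.6 and 12.1 CPM in SRF-FOXO1 and between 18.3 and 33.3 CPM in the others (log2 difference -0.80, SE 0.36). In both genes SRF-FOXO1 replicate 2 lay inside the range of the other lines and replicates 1 and 3 below it. Dusp5, an ERK phosphatase induced by ERK itself, followed the same order, at 19.0, 55.4 and 26.5 CPM against 45.5 to 118 CPM (log2 difference -1.0, SE 0.33). By replicate number, the summed immediate-early level of SRF-FOXO1, SRF-ICA1L and SRF-RELA was 1844, 5520 and 8009 CPM in replicate 1. It was 11805, 10139 and 14006 CPM in replicate 2 and 1864, 2031 and 1994 CPM in replicate 3. Replicate 3 was also low in pMSCV, at 2074 CPM. The low level of SRF-FOXO1 replicate 3 was thus shared by its same-numbered libraries, and that of replicate 1 was not. The cause was not tested.

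The 12 largest differences on each side were taken among genes with no overlap and an unadjusted p under 0.05. They also needed at least 50 counts in every library of whichever group stood higher, SRF-FOXO1 or the other 2 lines. Beside Cdh15, those on the lower side were led by Igfbp2, Alox5, Sema6a, Dync1i1 and Ackr3. Igfbp2 (chr1:72824503-72852474), a secreted binder of insulin-like growth factors, stood at 23.5, 9.24 and 21.6 CPM in SRF-FOXO1, 101, 54.6 and 286 CPM in SRF-ICA1L and 56.2, 60.8 and 129 CPM in SRF-RELA, with 120 to 402 CPM in pMSCV. The groups did not overlap, and the log2 difference was -2.60 (SE 0.94, unadjusted p 0.0149). Ackr3, a scavenging receptor for the chemokine CXCL12, was even among the SRF-FOXO1 libraries, at 10.5, 9.71 and 9.19 CPM. It was at 36.2, 28.9 and 63.1 CPM in SRF-ICA1L and 25.0, 30.3 and 62.8 CPM in SRF-RELA, with 126 to 139 CPM in pMSCV, and its log2 difference was -2.07 (SE 0.59, unadjusted p 0.00367). Alox5, the lipoxygenase that starts leukotriene synthesis, was at 17.2, 8.07 and 13.2 CPM in SRF-FOXO1 and 28.5 to 119 CPM in the other 6 (log2 difference -2.17, SE 0.86). Sema6a, a transmembrane semaphorin, was at 6.02, 3.42 and 2.68 CPM against 10.4 to 31.8 CPM (log2 difference -2.10, SE 0.76). Has1, a hyaluronan synthase, was at 7.5, 9.05 and 4.95 CPM against 10.6 to 37.2 CPM, and its log2 difference was -1.87 (SE 0.55, unadjusted p 0.00437). The other 6 of the set of 12 were Dync1i1, Ttc9, Tubb3, Pkp1, Osbp2 and 9930111J21Rik2, with log2 differences from -2.07 to -1.63. In all 12 genes every SRF-FOXO1 library also lay below every pMSCV library, as in Tubb3, a neuronal tubulin, at 28.4 to 206 CPM in pMSCV and 23.1, 19.7 and 11.6 CPM in SRF-FOXO1. The 12 were picked for low SRF-FOXO1 values, and the share of all genes that lay below pMSCV was not counted.

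Log2 differences of the 12 genes on the higher side ran from 0.80 to 2.05. Adh7 (chr3:138217760-138233382), an alcohol dehydrogenase that also oxidises retinol, stood at 143, 97.0 and 251 CPM in SRF-FOXO1, 56.3, 87.6 and 63.7 CPM in SRF-ICA1L and 66.4, 85.9 and 70.7 CPM in SRF-RELA, with 37.1 to 61.6 CPM in pMSCV. All SRF-FOXO1 libraries lay above the others, and the log2 difference was 1.19 (SE 0.29, unadjusted p 0.000936), or 0.74 without SRF-FOXO1 replicate 3. Fst, which encodes follistatin, a secreted inhibitor of activins and myostatin, was at 30.3, 38.2 and 46.0 CPM against 11.7 to 23.4 CPM (log2 difference 1.15, SE 0.35, unadjusted p 0.00559). Clic5, a chloride intracellular channel family member, had the largest difference of the 12, at 3.23, 8.44 and 13.8 CPM against 0.412 to 2.74 CPM (log2 difference 2.05, SE 0.65). Mpp1, a membrane scaffold protein, was at 266, 179 and 268 CPM against 94.1 to 178 CPM, so that SRF-FOXO1 replicate 2 only just cleared SRF-RELA replicate 1. Cacna1a, a subunit of a voltage-gated calcium channel, was at 8.28, 10.1 and 14.2 CPM against 3.90 to 8.08 CPM, also by a narrow margin. Gprc5c, Trim12c, Fam102a, Tmem14a, Siae, Gdap10 and Dmac2l made up the set, with log2 differences between 0.80 and 1.86. Gprc5c, an orphan receptor, was at 8.19, 4.22 and 5.89 CPM in SRF-FOXO1 and 0.397 to 1.31 CPM in pMSCV. The SRF-ICA1L and SRF-RELA libraries held 0.193 to 3.66 CPM, so SRF-FOXO1 replicate 2 cleared them by little. In 8 of the 12 genes every SRF-FOXO1 library also lay above every pMSCV library. These genes were picked for high SRF-FOXO1 values, and the share of all genes that lay above pMSCV was not counted.

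**Figure D3:**
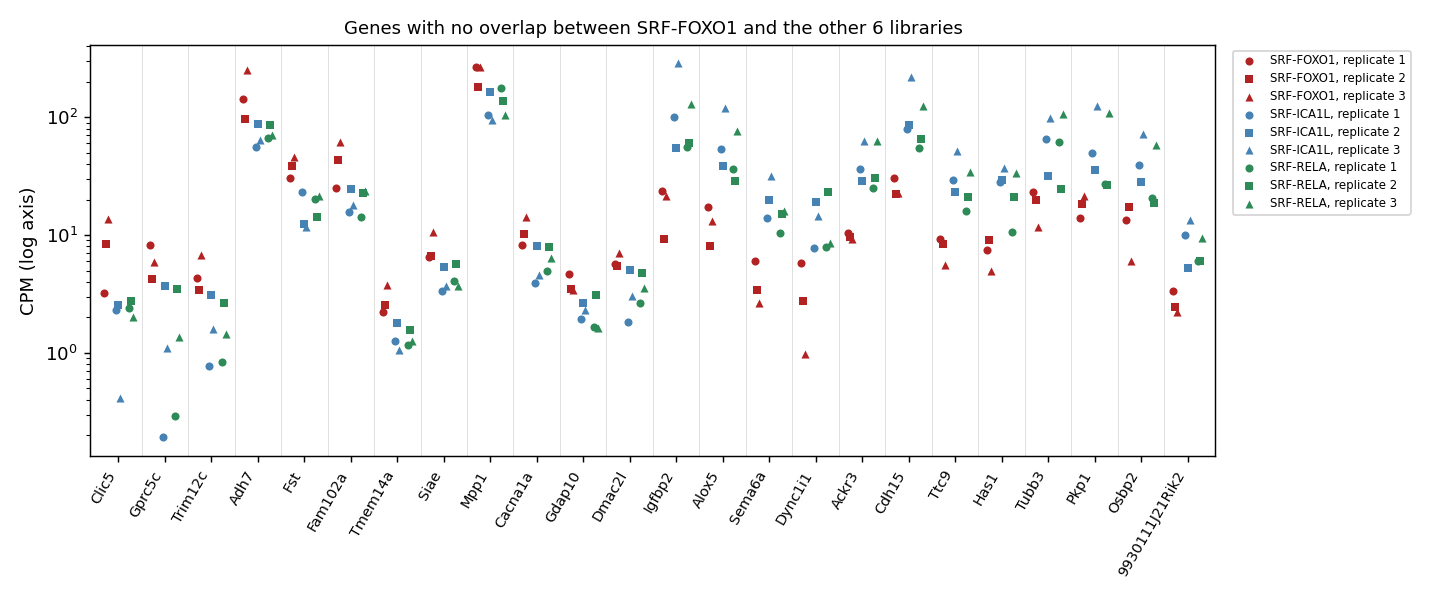
CPM (log axis) of the 12 genes with the largest higher and the 12 with the largest lower log2 difference, chosen for having no overlap, in each of the 9 libraries, with colour for the line and shape for the replicate. Red points (SRF-FOXO1) lie above the blue and green ones on the left from Clic5 to Dmac2l, and below them on the right from Igfbp2 to 9930111J21Rik2.

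Targets of FOXO factors showed a small lean upward. Of 27 measured, 22 had a log2 difference above 0, against 50.9% of all genes, but the median was 0.16, none was free of overlap and 2 passed an unadjusted p under 0.05. The median ran from 0.09 (without SRF-RELA replicate 1) to 0.32 (without SRF-RELA replicate 2). Without SRF-FOXO1 replicate 3 the median was 0.20 and 21 of the 27 lay above 0. In that fit none of the 27 had an unadjusted p under 0.05, while the count over all genes fell from 1057 to 243. Txnip (chr3:96557957-96561883), the thioredoxin-interacting protein that restrains glucose uptake, stood at 52.0, 27 and 201 CPM in SRF-FOXO1, 34.5, 21.3 and 25.6 CPM in SRF-ICA1L and 26.0, 34.2 and 20.1 CPM in SRF-RELA. SRF-FOXO1 replicates 1 and 3 lay above the others and replicate 2 lay among them. Its log2 difference was 1.79 (SE 0.46, unadjusted p 0.00174) and 0.55 without SRF-FOXO1 replicate 3, and pMSCV was at 31.5 to 46.1 CPM. Pik3ca, the catalytic subunit of PI3-kinase alpha, was at 114, 100.02 and 115 CPM against 85 to 102 CPM (log2 difference 0.28, SE 0.11). Cdkn1b, the CDK inhibitor p27, was at 131, 46.7 and 107 CPM against 50.5 to 84.1 CPM and had a log2 difference of 0.54 (SE 0.28), which was 0.23 without SRF-FOXO1 replicate 1. In all 3 genes replicate 2 was the lowest SRF-FOXO1 library. Eif4ebp1, the translation repressor, went the other way, at 78.8, 93.8 and 51.3 CPM against 90.2 to 146 CPM. The other FOXO genes overlapped, with log2 differences of 0.17 for Foxo4, 0.18 for Foxo3 and -0.21 for Foxo6.

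The FOXO core letters GTAAACA (or TGTTTAC on the opposite strand) are shown in capitals in the promoters of Txnip and Tmem14a. Tmem14a carries them among those of the higher 12 that were matched to a RefSeq promoter, and Fst was not matched. The windows are chr3:96557807-96557906 for Txnip and chr1:21218445-21218544 for Tmem14a, both on the plus strand.
Txnip: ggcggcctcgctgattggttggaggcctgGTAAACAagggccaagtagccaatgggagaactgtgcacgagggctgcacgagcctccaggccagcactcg
Tmem14a: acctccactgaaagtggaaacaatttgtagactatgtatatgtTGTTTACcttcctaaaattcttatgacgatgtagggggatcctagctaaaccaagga
These letters occurred before the start of 2.17% of all matched genes, of 4 of 171 genes (2.34%) with SRF-FOXO1 all above and of 1 of 147 genes (0.680%) with SRF-FOXO1 all below. Tmem14a, a small membrane protein gene, stood at 2.22, 2.53 and 3.79 CPM in SRF-FOXO1 and 1.05 to 1.79 CPM in the other 6.

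Genes of the insulin and IGF pathway ran from -2.60 for Igfbp2, given above, to 2.61 for the ligand Igf1, named after its values were seen. Igf1 stood at 10.3, 0.938 and 139 CPM in SRF-FOXO1 and 0.588 to 21.2 CPM in the other 6, so replicate 3 lay above the others and replicates 1 and 2 lay among them. Its log2 difference (SE 1.36) was -0.55 without SRF-FOXO1 replicate 3. Igfbp3, another secreted IGF binder, stood at 12.9, 8.44 and 175 CPM in SRF-FOXO1 and 6.48 to 32.8 CPM in the others. Its log2 difference of 2.15 (SE 0.88) was -0.47 without SRF-FOXO1 replicate 3. Irs1, the insulin receptor substrate, was at 271, 88.3 and 166 CPM against 88.7 to 146 CPM (log2 difference 0.67, SE 0.33, and 0.21 without SRF-FOXO1 replicate 1). Akt2, a kinase that phosphorylates FOXO1, was at 155, 114 and 144 CPM against 98.7 to 134 CPM (log2 difference 0.29, SE 0.14). In both of these, replicate 2 of SRF-FOXO1 did not lie above the other lines. Of 22 measured genes of the pathway, 2 were higher and 1 lower at an unadjusted p under 0.05.

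Matrix genes rested largely on SRF-FOXO1 replicate 3. Of 32 collagen genes 23 had a log2 difference above 0 and the median was 0.71, but without that library 12 lay above 0 and the median was -0.18. The matrix glycoproteins and proteoglycans went from a median of 0.28 (37 of 51 above 0) to -0.02 (25 of 51), and their 7 higher genes at an unadjusted p under 0.05 fell to 1. Without SRF-FOXO1 replicate 2 that median was 0.52. Dcn, the collagen-binding proteoglycan decorin, stood at 153, 10.4 and 1622 CPM in SRF-FOXO1 and at 8.86 to 128 CPM in the other 6, with 24.8 to 377 CPM in pMSCV. The SRF-FOXO1 libraries held both the highest level and a level near the lowest. Serpine2, an inhibitor of thrombin and plasminogen activators, was at 21, 13.3 and 774 CPM against 4.85 to 107 CPM, and its log2 difference of 2.88 (SE 1.2) was -1.10 without replicate 3. Col23a1, a transmembrane collagen, was at 1.0, 1.83 and 42.5 CPM against 0.337 to 3.82 CPM, with a log2 difference of 2.85 that was -0.56 without replicate 3. In these 3 genes replicates 1 and 2 of SRF-FOXO1 lay within or close to the range of the other lines.

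Markers of fibroblasts moved with the same library. The 8 measured summed to 917 to 7203 CPM in SRF-FOXO1, 1217 to 3088 CPM in the other 6 and 797 to 4706 CPM in pMSCV, so pMSCV spread as well. Their median was 0.86, 0.11 without SRF-FOXO1 replicate 3 and 1.30 without replicate 2, and their part in the matrix values was not tested. Thy1 and Tcf21, 2 further markers on the list, were not in the table. Endothelial markers summed to at most 11.7 CPM and leukocyte markers to at most 13.2 CPM in any of the 9 libraries.

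A few matrix genes kept a log2 difference above 0 without SRF-FOXO1 replicate 3, some of them a smaller one. Tnxb, the glycoprotein tenascin-X, stood at 28.4, 6.33 and 35.2 CPM in SRF-FOXO1, 2.94, 7.90 and 2.66 CPM in SRF-ICA1L and 3.13, 8.76 and 6.71 CPM in SRF-RELA, so replicate 2 overlapped. Its log2 difference was 2.14 (SE 0.51, unadjusted p 0.000906), with 1.72 at the least over the fits that leave out a library. Col12a1, a collagen that coats fibrils, was at 792, 387 and 1305 CPM against 310 to 654 CPM (log2 difference 0.86, SE 0.32, and 0.37 without SRF-FOXO1 replicate 3). Timp2, a metalloprotease inhibitor, was at 1332, 1582 and 2338 CPM against 818 to 1451 CPM (log2 difference 0.61, SE 0.22, and 0.34 without that library), and in both genes 1 SRF-FOXO1 library overlapped. Col4a3, a basement membrane collagen, alone among collagens had all SRF-FOXO1 libraries above, at 0.479, 0.469 and 0.357 CPM against 0.0466 to 0.223 CPM. These are levels of at most 11 counts in an SRF-FOXO1 library.

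**Figure D4:**
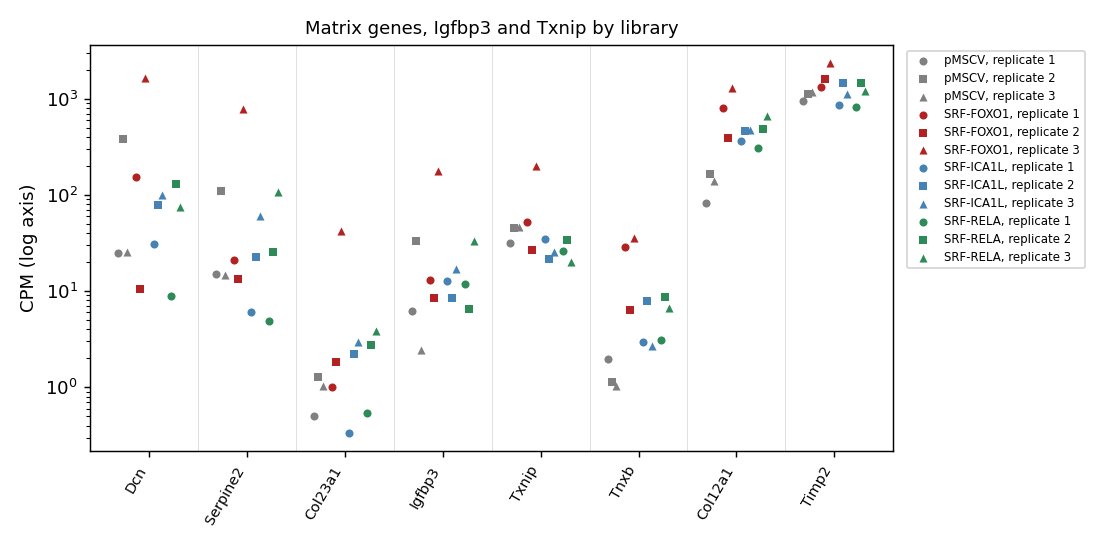
CPM (log axis) of 6 matrix genes, Igfbp3 and Txnip in each library of pMSCV, SRF-FOXO1, SRF-ICA1L and SRF-RELA, with shape for the replicate. The SRF-FOXO1 triangle (replicate 3) stands at the top for Dcn (1622 CPM) and Serpine2 (774 CPM), where the SRF-FOXO1 circle and square lie among the other lines.

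Growth factor and adhesion genes gave scattered differences. Pdgfc (chr3:81036416-81214040), a ligand of the PDGF receptors, stood at 12.6, 16.3 and 13.6 CPM in SRF-FOXO1, 33.3, 31.5 and 42.5 CPM in SRF-ICA1L and 23.6, 32.7 and 28.1 CPM in SRF-RELA. It did not overlap, and its log2 difference was -1.16 (SE 0.39, unadjusted p 0.00934), from -1.28 to -1.09 when a library was left out. Erbb3, a neuregulin receptor, was at 1.39, 1.36 and 0.936 CPM against 1.96 to 7.64 CPM (log2 difference -1.76, SE 0.65), while its ligand Nrg1 was at 70.5, 64.1 and 64.3 CPM against 31.7 to 58.6 CPM (log2 difference 0.40, SE 0.30, unadjusted p 0.200). Receptor and ligand thus lay on opposite sides, both without overlap. Jag2, a Notch ligand, was at 12.2, 8.11 and 5.22 CPM against 9.24 to 54.9 CPM (log2 difference -1.64, SE 0.66). Wnt7b was at 1.44, 0.281 and 0.0892 CPM against 0.670 to 5.26 CPM (log2 difference -2.44, SE 0.97). Fat4, a giant cadherin, was at 74.4, 56.7 and 219 CPM against 26.7 to 68.1 CPM (log2 difference 1.27, SE 0.43, and 0.44 without SRF-FOXO1 replicate 3), and its replicate 2 overlapped. Of 19 Notch genes 3 were lower at an unadjusted p under 0.05, of 36 Wnt genes 4 were higher and 2 lower, and of 36 genes of the TGF-beta and BMP pathway 2 were higher, Fst and Tgfbr2. The Hox gene Hoxc6 stood at 17.3, 15.9 and 21.1 CPM against 9.40 to 14.6 CPM, with no overlap (log2 difference 0.62, SE 0.18, unadjusted p 0.00418).

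Interferon-response genes lay mostly above 0 in SRF-FOXO1. Of 34 measured, 30 lay above 0, the median was 0.65 and 6 were higher and 1 lower at an unadjusted p under 0.05. Without SRF-FOXO1 replicate 3 the median was 0.54 and 3 were higher. Irgm1, an interferon-induced GTPase, was at 37.6, 26.0 and 38.8 CPM against 18.2 to 29.8 CPM (log2 difference 0.50, SE 0.19). SRF-FOXO1 replicate 2 lay among the other lines' libraries. The list was not free of overlap as a whole: its mean log2 level, relative to pMSCV, was 0.27 to 0.68 in SRF-FOXO1 and -0.91 to 0.53 in the other 6. The pMSCV libraries themselves ran from -0.61 to 0.80, so all SRF-FOXO1 libraries lay within the control range.

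The targets of NF-kappaB, of which RELA is a subunit, had a median log2 difference of 0.01 between SRF-ICA1L and SRF-RELA. Of 26 targets measured, none had an unadjusted p under 0.05 in SRF-FOXO1 against the 2 lines, and 7 had a log2 difference above 0. The median was -0.27 against SRF-ICA1L and -0.22 against SRF-RELA, 2 comparisons that share the SRF-FOXO1 libraries. Against both lines together it was -0.24, but -0.61 without SRF-FOXO1 replicate 2 and 0.08 without SRF-RELA replicate 2, so 1 library turned its sign. Ccl2, a monocyte chemokine, stood at 18.7, 75.0 and 16.3 CPM in SRF-FOXO1, 48.1, 106 and 24.2 CPM in SRF-ICA1L and 72.4, 101 and 31.0 CPM in SRF-RELA. Replicate 2 was the highest library of each line. Nfkb2 was at 63.1, 82.7 and 54.1 CPM against 68.1 to 98.0 CPM (log2 difference -0.32, SE 0.16), and Ccl5 was the member without overlap, at 2.14, 0.844 and 0.936 CPM against 0.365 to 0.783 CPM.

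Cell cycle and glycolysis genes lay mostly below 0 by small amounts. Of 37 cell cycle genes 36 lay below 0 and the median was -0.33, with a range of -0.45 to -0.20 over the fits that leave out a library, the latter without SRF-RELA replicate 3. Only E2f2 passed an unadjusted p under 0.05, at 13.6, 14.6 and 11 CPM in SRF-FOXO1, 36.8, 18.0 and 41.2 CPM in SRF-ICA1L and 32.8, 14.3 and 34.6 CPM in SRF-RELA. Replicate 2 of SRF-RELA lay within the SRF-FOXO1 range. The mean log2 level of the list relative to pMSCV was -0.21 to 0.12 in SRF-FOXO1 and -0.52 to 0.63 in the other 6. The pMSCV libraries themselves ran from -0.94 to 0.66. Rbl2, the pocket protein p130 that holds cells in quiescence, was at 91.1, 81.0 and 116 CPM against 49.5 to 93.8 CPM (log2 difference 0.51, SE 0.21). Of 29 glycolysis and hypoxia genes 23 lay below 0 and 5 were lower at an unadjusted p under 0.05. Pfkl, liver-type phosphofructokinase, was at 79.5, 99.5 and 93.6 CPM against 109 to 140 CPM with no overlap (log2 difference -0.42, SE 0.16), and Hk2, hexokinase 2, was at 55.6, 138 and 28.2 CPM against 69.6 to 240 CPM. Shmt2, the mitochondrial serine hydroxymethyltransferase and a target of ATF4, was at 170, 213 and 137 CPM against 149 to 384 CPM (log2 difference -0.72, SE 0.27). Cholesterol and fatty acid synthesis genes had a median of -0.02 and none of 29 passed an unadjusted p under 0.05. That median was -0.64 without SRF-FOXO1 replicate 1 and 0.27 without replicate 3, where 26 of 29 lay above 0.

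**Figure D5:**
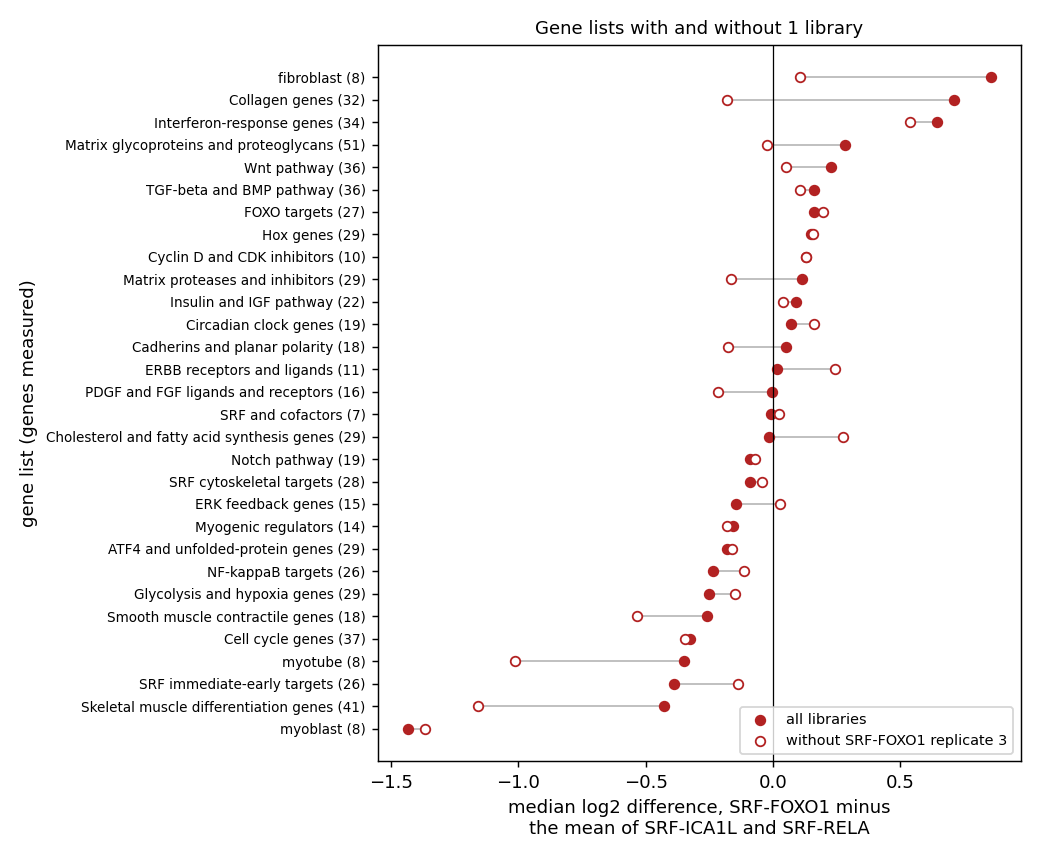
Median log2 difference of each gene list with at least 7 measured genes (number in brackets), for all libraries (filled) and without SRF-FOXO1 replicate 3 (open), with a grey line between. The myoblast list stays near -1.44 and -1.36, while the collagen list goes from 0.71 to -0.18.

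Each of the other lines was also set against SRF-FOXO1 alone. The 2 comparisons share the SRF-FOXO1 libraries, and their values are given side by side only. No gene was called in either by edgeR or DESeq2: 894 genes (5.94%) had an unadjusted p under 0.05 against SRF-ICA1L and 378 (2.51%) against SRF-RELA by edgeR, and 1152 and 537 by DESeq2. The log2 difference of Cdh15 was -2.34 against SRF-ICA1L and -1.70 against SRF-RELA, that of Ackr3 was -2.13 and -2.01, and that of Adh7 was 1.24 and 1.14. Srf differed more from SRF-ICA1L (-1.14) than from SRF-RELA (-0.53), although the difference between these 2 lines was itself 0.62 (SE 0.34, unadjusted p 0.0941). Between SRF-ICA1L and SRF-RELA edgeR and DESeq2 called 0 genes. An unadjusted p under 0.05 was found in 24 genes (0.159%) by edgeR and in 30 by DESeq2. These fits ignored the pairing of same-numbered libraries of the 2 lines, which widens the error, so the low counts do not measure likeness. With the replicate number as a block, edgeR had 44 in the fit of 17 libraries and 98 in that of 9. The median absolute log2 difference over all genes was 0.11 between SRF-ICA1L and SRF-RELA and 0.23 between SRF-FOXO1 and their mean. Differences shared by same-numbered libraries cancel in the first of these medians and less so in the second, so the 2 are not directly comparable.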

How the data were processed

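RNA sequencing was done on 17 libraries of C2C12 cells, with polyadenylated RNA and a stranded kit, per the labels' protocols. The authors deposited raw counts per gene, which were used here for all 15062 genes. Per the submitters' processing notes, FastQC 0.11.8, Trimmomatic 0.39, HISAT2 2.12.1, and featureCounts with Subread 2.0.0 were used with GRCm38. The annotation and the strand setting are not given in the sources used here. Every gene in the table reached 10 counts in at least 3 libraries. Groups and replicate numbers came from the titles.

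Counts were scaled by TMM and fitted with edgeR 4.0.16 (R 4.3.3) for all genes and all 17 libraries, with 1 coefficient per group, weights of 1 for SRF-FOXO1 and -0.5 for each other line, a robust quasi-likelihood test and Benjamini-Hochberg adjustment. The biological coefficient of variation was 36.5%, so differences between libraries and not counting error set the precision. DESeq2 1.42.0 and limma 3.58.1 (voom) were alternatives, with leaving out each library. Deviations from group means correlated between same-numbered SRF-ICA1L and SRF-RELA libraries at 0.695, 0.789 and 0.763, so those numbers pair. SRF-FOXO1 replicate 3 correlated with its same-numbered libraries at 0.50 for SRF-ICA1L and 0.45 for SRF-RELA. The other SRF-FOXO1 libraries showed little of this, at -0.01 to 0.12 with theirs. A differently numbered pair with SRF-FOXO1 reached 0.42. The block made no call between SRF-ICA1L and SRF-RELA.

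The comparison and the 28 gene lists and 10 marker lists were chosen with earlier results of these data known. Named were the introduced genes, their partners and the 12 largest differences on each side under the rule in the report. Predicted genes were left out of the 12 by name (Gm with digits, an ending in Rik or no symbol), which let 9930111J21Rik2 stay. Up to 4 genes with the smallest p per list were also named, and others were chosen after their values were seen. Coordinates come from the GENCODE annotation of GRCm38 and promoters from RefSeq (GRCm38.p6).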

Additional observations from a re-analysis of the deposited data

How the results depend on the processing

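The count of called genes was 0 in all edgeR and limma-voom settings run, and 1 in DESeq2 for SRF-FOXO1 minus the mean of the other lines. The count at an unadjusted p under 0.05 depended on single libraries. For SRF-FOXO1 minus the mean it ran from 243 (without SRF-FOXO1 replicate 3) to 1918 (without SRF-RELA replicate 2), for SRF-FOXO1 minus SRF-ICA1L from 260 (without SRF-FOXO1 replicate 3) to 1738 (without SRF-ICA1L replicate 2), and for SRF-FOXO1 minus SRF-RELA from 111 (without SRF-FOXO1 replicate 3) to 1402 (without SRF-RELA replicate 2). For SRF-ICA1L minus SRF-RELA it ran from 22 to 90, and it was 8 among genes with at least 50 counts in 3 libraries. With the replicate number as a block, in fits of 17 and of 9 libraries, the counts were 1754 and 1884 for SRF-FOXO1 minus the mean, 1520 and 1707 against SRF-ICA1L, 721 and 850 against SRF-RELA, and 44 and 98 between SRF-ICA1L and SRF-RELA. The correlations of SRF-FOXO1 with same-numbered libraries were 0.07, 0.10 and 0.50 for SRF-ICA1L and 0.12, -0.01 and 0.45 for SRF-RELA. Replicate 3 of SRF-FOXO1 thus varied together with replicate 3 of both lines, while replicates 1 and 2 showed little of this. Differently numbered libraries came near these values, as SRF-FOXO1 replicate 2 correlated at 0.34 with SRF-ICA1L replicate 1 and at 0.42 with SRF-RELA replicate 1. Deviations within a line sum to 0, so these correlations are not independent of each other. No call was made with the block. Genes with all SRF-FOXO1 libraries above the 6 others ran from 279 to 1405 without a library, and genes with all below from 253 to 1057, both highest without SRF-FOXO1 replicate 2; these settings were chosen after seeing the data, and fewer libraries make no overlap easier. Some of the named log2 differences changed sign without 1 library: Igf1 (-0.55 to 3.46), Igfbp3 (-0.47 to 2.67), Col23a1 (-0.56 to 3.40) and Serpine2 (-1.10 to 3.68), each negative without SRF-FOXO1 replicate 3, and the genes near 0, Rela (-0.28 to 0.10), Foxo6 (-0.59 to 0.10) and Vcam1 (-0.13 to 0.43). The cause was not tested.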
